A study of Mus musculus with 8 samples.

Results

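The 6 neighbouring genes Il1r2, Il1r1, Il1rl2, Il1rl1, Il18r1 and Il18rap form the IL-1 receptor family cluster of mouse chromosome 1, and their open chromatin was followed in group 2 innate lymphoid cells (ILC2s). Every peak with a summit inside one of the 6 gene bodies or within 50 kb of one was taken, which gave 1 window of 567 kb (chr1:40034692-40601707, mm10). It held 40 of the 60835 regions of the series, counted after overlapping peaks had been merged within a list and linked across lists. The regions were thus taken by position and not by any measured value. The 6 genes themselves were chosen with earlier results of these data known. The first region inside the window lay 39.2 kb before Il1r2 and the last 35.3 kb beyond Il18rap, and the nearest regions left out lay 60.6 kb and 106 kb away, in 1 and 2 of the lists.

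Chromatin accessibility was measured by ATAC-seq, in which the Tn5 transposase inserts adapters into open DNA, in ILC2s from the thymus of C57BL/6 mice with the plck-Id1 transgene. All 4 groups carried this transgene, in which the Lck promoter, active in the T cell lineage, drives Id1, an inhibitor of E proteins. The cells were transduced with a MIGR1 retrovirus for GFP alone (the GFP groups) or for GFP with E47-ER, the E protein E47 fused to a tamoxifen-responsive part of the estrogen receptor (the E47 groups). They were stimulated and, after sorting for GFP, expanded in cytokines that included IL-7, IL-25 and IL-33, and were harvested after 4 h or 16 h of 4-hydroxytamoxifen. The labels give no age of the mice, and cells without the transgene or without tamoxifen were not analysed here. Each group had 2 samples, combined by the authors into 1 peak list, so replicate error cannot be given and nothing could be tested; everything below describes 4 lists. The titles and transduction labels give the groups used here, whereas the free-text descriptions put MIGR1 without an insert in replicate 1, and MIGR1 with E47-ER in replicate 2, whatever the group. Under those descriptions every list would mix both vectors. As a check of the cell type, all 10 ILC2 marker genes examined (Gata3, Rora, Il17rb, Klrg1, Icos, Areg, Il13, Il5, Il7r and Il2ra) had a region within 5 kb in every list. Markers of other cell types had regions in part. For T cells these were 6 to 7 of 9 (none at Cd8a or Cd8b1), and for B cells 3 to 4 of 5 (none at Ms4a1). Myeloid cells had 3 of 5 (none at Csf1r or Lyz2), and NK cells and ILC1s 3 of 5 (none at Ncr1 or Klrb1c). Mast cells and basophils had 2 of 5 (none at Fcer1a, Mcpt8 or Ms4a2). Every list had regions at the T cell genes Cd3d, Cd3g, Cd4, Lat and Ptcra and the B cell genes Cd79a, Pax5 and Ebf1. Every list also had them at Itgax, Cd14 and Cebpa (myeloid), Eomes, Tbx21 and Prf1 (NK and ILC1), and Cpa3 and Hdc (mast cell and basophil). The share of all genes with such a region was not computed, so these counts do not establish the cell type. The part of other cell types in the results was not tested.

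The proteins of the cluster are related membrane receptors with immunoglobulin domains outside the cell and, in the signalling members, a Toll/IL-1 receptor (TIR) domain inside it. A ligand-binding chain pairs with an accessory chain, and their TIR domains recruit MyD88 and IRAK kinases, which lead to NF-kB and MAP kinase activation. Il1rl1 encodes ST2, the IL-33 receptor through which ILC2s are activated by tissue alarm signals, and it is a defining receptor gene of these cells. E proteins such as E47 bind E-boxes, DNA of the form CANNTG, and restrain ILC2 development, whereas GATA3, which binds GATA, promotes it.

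The RefSeq promoter table (GRCm38.p6, the same assembly as mm10) lists 10 start sites for the 6 genes, all on the + strand, each with a window of 300 bases from 250 before to 50 after the start. Regions overlapped 5 of the 10 windows in the E47 list at 4 h, 2 in GFP at 4 h, 5 in E47 at 16 h and 6 in GFP at 16 h. Over 21262 windows of protein-coding genes the shares were 51.5%, 50.3%, 50.1% and 51.5%. Windows of Il1r2 and Il18rap were overlapped in every list, the 3 windows of Il18r1 in every list other than GFP at 4 h, and the first of the 2 Il1rl1 windows in GFP at 16 h alone. The windows at both starts of Il1r1, at Il1rl2 and at the second start of Il1rl1 were overlapped in none. The 5 windows printed here are those that separate these cases at the IL-33 and IL-18 receptor genes and at the decoy receptor gene Il1r2. Capitals mark CANNTG (its own reverse complement) and GATA on either strand, read as GATA or TATC.

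Il1rl1 first start, chr1:40429320-40429619, + strand: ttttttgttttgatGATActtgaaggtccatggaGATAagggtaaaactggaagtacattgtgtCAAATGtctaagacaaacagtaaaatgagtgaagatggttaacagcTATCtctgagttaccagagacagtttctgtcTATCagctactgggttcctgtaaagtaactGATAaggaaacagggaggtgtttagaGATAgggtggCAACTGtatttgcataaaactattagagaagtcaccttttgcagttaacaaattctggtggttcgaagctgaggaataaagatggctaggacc

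Il1rl1 second start, chr1:40439379-40439678, + strand: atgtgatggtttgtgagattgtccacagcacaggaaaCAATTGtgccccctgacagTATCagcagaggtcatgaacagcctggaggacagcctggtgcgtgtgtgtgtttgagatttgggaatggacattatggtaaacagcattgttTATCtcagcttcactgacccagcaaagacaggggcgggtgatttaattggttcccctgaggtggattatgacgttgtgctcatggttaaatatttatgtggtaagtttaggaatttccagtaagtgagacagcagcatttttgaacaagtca

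Il18r1 second start, chr1:40465371-40465670, + strand: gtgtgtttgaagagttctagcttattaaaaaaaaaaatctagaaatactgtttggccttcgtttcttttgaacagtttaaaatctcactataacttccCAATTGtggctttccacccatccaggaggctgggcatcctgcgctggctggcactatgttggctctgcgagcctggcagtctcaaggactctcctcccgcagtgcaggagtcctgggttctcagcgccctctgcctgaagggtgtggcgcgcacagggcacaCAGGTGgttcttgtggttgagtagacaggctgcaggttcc

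Il18rap start, chr1:40515112-40515411, + strand: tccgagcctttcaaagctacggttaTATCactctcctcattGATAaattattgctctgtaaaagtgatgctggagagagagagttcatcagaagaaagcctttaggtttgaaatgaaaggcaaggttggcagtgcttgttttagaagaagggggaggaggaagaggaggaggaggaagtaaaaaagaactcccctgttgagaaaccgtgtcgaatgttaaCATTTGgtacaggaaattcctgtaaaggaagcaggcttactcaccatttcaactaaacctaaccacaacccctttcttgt

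Il1r2 start, chr1:40085843-40086142, + strand: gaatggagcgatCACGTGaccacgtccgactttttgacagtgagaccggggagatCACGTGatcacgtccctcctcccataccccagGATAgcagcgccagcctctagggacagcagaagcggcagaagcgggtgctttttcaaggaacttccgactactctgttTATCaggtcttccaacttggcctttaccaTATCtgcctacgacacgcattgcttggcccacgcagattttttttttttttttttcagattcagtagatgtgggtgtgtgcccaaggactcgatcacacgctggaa

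The first Il1rl1 window held 6 GATA matches and 2 CANNTG matches. As many as 6 GATA matches occurred in 0.574% of all windows and at least 1 in 53.2%. The second Il1rl1 window held 2 GATA matches and 1 CANNTG match. CAGGTG, the E-box form that E proteins are known to prefer along with CAGCTG, was found in the printed Il18r1 window, 10 bases after the start site, and in the window of the third Il18r1 start, and in no other window of the cluster (19.7% of all windows, read on both strands). CAGCTG occurred in none of the 10 (15.6% of all). CANNTG in any form was present in all 10 and in 69.0% of all windows; both matches of the Il1r2 window read CACGTG. These matches describe letters only and say nothing of what was bound.

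Across the lists, 19 of the 40 regions (47.5%) were called in all 4, against 48.8% of all regions of the series. The E47 list held 31 of the 40 at 4 h and 26 at 16 h, and the GFP list 26 and 37. Before linking, the whole lists held 49811 and 40649 regions with E47, and 42665 and 52846 with GFP. The 2 longest lists thus also held the most regions of the cluster. At 4 h, 9 regions were called with E47 and not with GFP (19.5% of all regions in the series), and 4 with GFP and not with E47 (8.37%). At 16 h these numbers were 1 (7.48%) and 12 (26.4%). No region was E47-only at both times (3.43% of all regions), and 2 were GFP-only at both times (4.56%), 1 inside Il1r1 and 1 inside Il1rl1. Missing only from GFP at 4 h were 4 regions (10%, against 4.29% of all). A single region makes up 2.5% of the cluster, so these shares are coarse. The E47 list was the longer of the pair at 4 h and the GFP list at 16 h. All lists were then shortened to 40649 regions, the length of the E47 list at 16 h. At 4 h, 5 regions were E47-only against 6 GFP-only (12.2% and 12.1% of all). At 16 h they were 4 against 5 (14.5% and 15.1%). In the cluster, the excess of E47-only regions at 4 h was thus not seen. Over the series, equal list lengths by themselves make the E47-only and GFP-only shares nearly equal. A region that is not called may be open below the threshold, or may have failed the authors' demand for agreement between replicates; the files do not separate these.

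**Figure D1:**
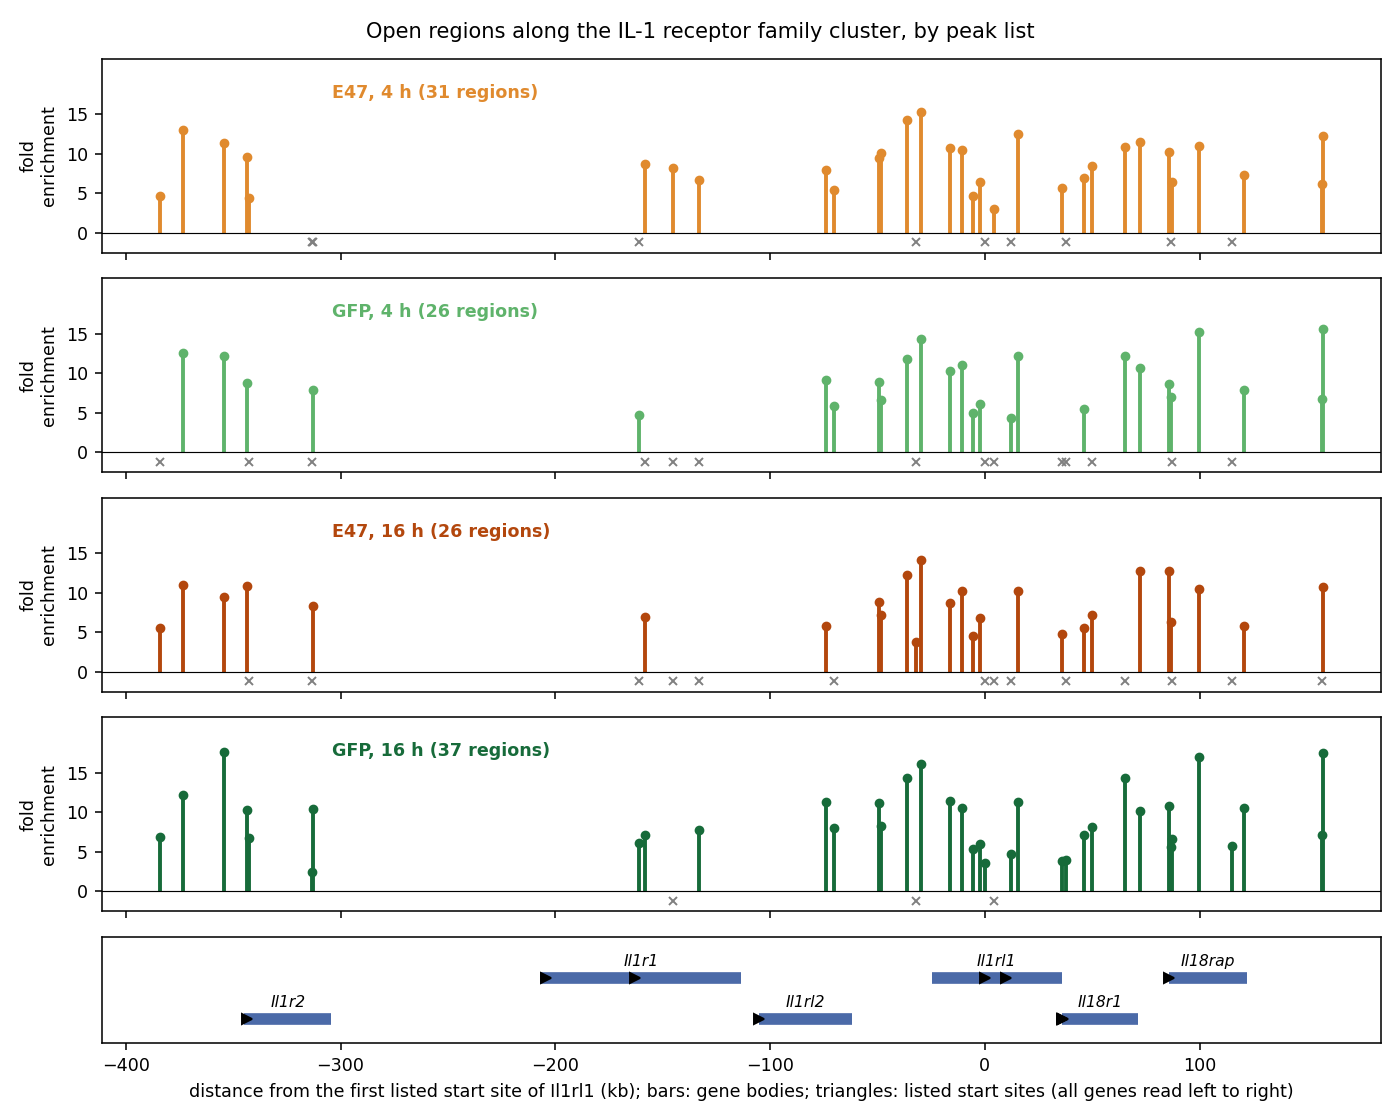
Fold enrichment (y axis, the authors' ratio over local background, highest peak of a region) of each called region against its distance in kb from the first listed Il1rl1 start site (x axis), 1 panel per list, with gene bodies and start sites below. Dots are called regions and grey crosses are regions called in another list only. No region lay between Il1r2 and the middle of Il1r1 over 152 kb. From top to bottom the lists held 31, 26, 26 and 37 of the 40 regions. Whole lists had 49811, 42665, 40649 and 52846 regions before linking.

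**Figure D2:**
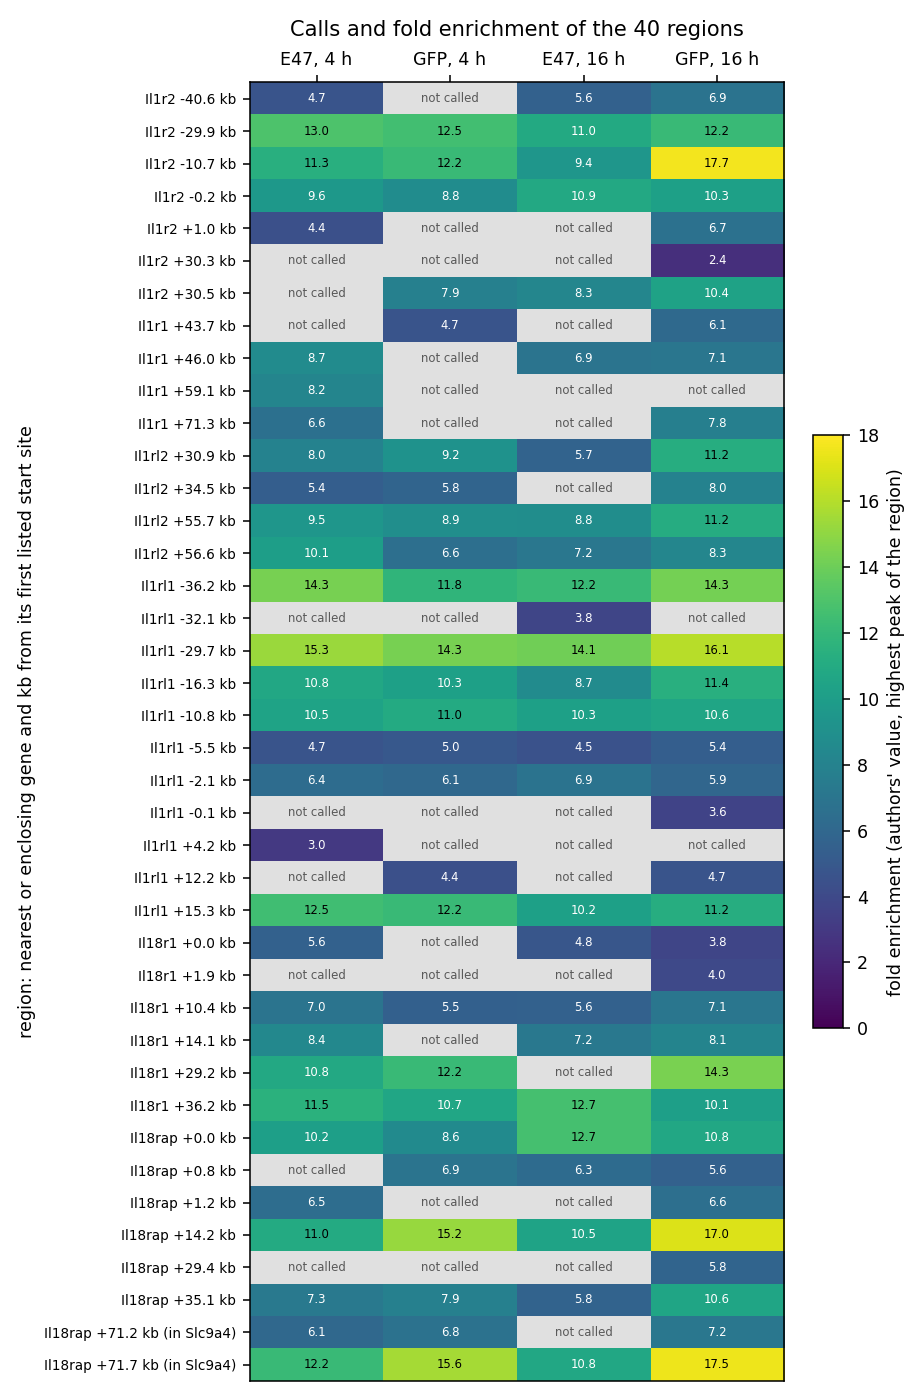
The 40 regions (rows, in order along the chromosome, named by the enclosing or nearest member and the distance in kb from its first listed start site) in the 4 lists (columns), with the fold enrichment printed and coloured and grey where not called. Of the rows, 19 are filled in all 4 columns, and 12 are filled in GFP and empty in E47 at 16 h.

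Il1rl1, the IL-33 receptor gene (chr1:40404864-40465418), carried the most regions of the 6, with 8 inside the gene body, of which 5 were called in all lists. The gene body of the table begins well before the first start site with a promoter window, so regions inside it can still lie before the start. Its tallest region lay 29.7 kb before that start, outside the gene body (chr1:40399374-40400107). Its fold enrichment was 15.3 in E47 and 14.3 in GFP at 4 h, and 14.1 and 16.1 at 16 h. Among the 29667 regions called in all lists, this region stood at percentile 68.5, 69.1, 68.0 and 72.4 in the same order, so its standing differed little between the lists. A second tall region, 36.2 kb before the start (chr1:40393116-40393914), had a fold of 14.3 with E47 against 11.8 with GFP at 4 h, and of 12.2 against 14.3 at 16 h, with E47 above GFP at 4 h and below it at 16 h.

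Nearer the gene, regions 16.3 kb and 10.8 kb before the first start had folds of 8.71 to 11.4 in the 4 lists. The smaller ones 5.5 kb and 2.1 kb before it had folds of 4.52 to 6.86. At 5.5 kb, E47 was below GFP at 4 h (4.66 against 4.98) and at 16 h (4.52 against 5.40). At 2.1 kb, E47 was above GFP at 4 h (6.39 against 6.08) and at 16 h (6.86 against 5.92). The latter order did not hold at both times after division by each list's median or by percentile. Within the gene, 15.3 kb after the first start (chr1:40444548-40445218), the folds were 12.5 with E47 and 12.2 with GFP at 4 h, and 10.2 with E47 and 11.2 with GFP at 16 h. The ratios of E47 to GFP at the 7 regions of Il1rl1 that were called in every list ran from 0.94 to 1.22 at 4 h and from 0.77 to 1.16 at 16 h. Over all regions called in every list the medians were 1.07 and 0.94, which is the shift between whole lists against which single ratios are to be read.

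At the Il1rl1 start sites themselves little was called. The region over the first start (chr1:40429067-40429639), the window with 6 GATA matches, was present in GFP at 16 h alone, with a fold of 3.59, at percentile 14.8 of that list by −log10 p. Of windows of protein-coding genes, 0.616% were overlapped in GFP at 16 h alone, while 48.2% were overlapped in all lists and 46.7% in none. No region overlapped the second start, the nearest being 1973 bp away. That neighbour (chr1:40441651-40442170) was the GFP-only region of the gene, with fold 4.38 at 4 h and fold 4.70 at 16 h, and it kept that pattern at equal list length. Weak regions were also called in single E47 lists, 4.2 kb after the first start at 4 h (fold 2.98) and 32.1 kb before it at 16 h (fold 3.79), the latter being the only region of the cluster that was E47-only at 16 h. None of the single-list regions of Il1rl1 remained when the lists were made equally long, other than that one. E47 at 16 h is the shortest list and lost no region in this step, so that region could not drop out.

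Il18r1, which encodes the ligand-binding chain of the IL-18 receptor (chr1:40465552-40500854), showed differing calls at most of its regions. The region over its start sites (chr1:40465482-40465954), which covers the CAGGTG match printed above, had folds of 5.61 in E47 at 4 h, 4.83 in E47 at 16 h and 3.79 in GFP at 16 h, and was not called in GFP at 4 h. Both E47 values thus lay above the only GFP value. Its percentiles by −log10 p were 28.8, 10.2 and 5.13 in those lists, so it was weak in each. With lists of equal length it was called in both E47 lists and in neither GFP list. No other region of the cluster had this pattern there, and 4.74% of all regions of the series had it. The call in E47 at 16 h was bound to stay, as that list is the shortest and was not cut. Of all promoter windows, 0.527% were overlapped in every list but GFP at 4 h, while 48.2% were overlapped in all lists and 46.7% in none. Every partial pattern was thus a small share of windows. Among all regions of the series, 4.29% were missing only from GFP at 4 h.

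Further into Il18r1 the calls differed in other ways. A weak region 1.9 kb after the first start was called in GFP at 16 h alone (fold 3.99), and 1 region of the gene, 10.4 kb after it, was called in every list, with folds of 5.51 to 7.09. A region 14.1 kb after the first start (chr1:40479480-40479931) was likewise missing from GFP at 4 h, with folds of 8.40 and 7.24 in E47 and 8.09 in GFP at 16 h. The region 29.2 kb after it (chr1:40494292-40495062) had folds of 10.8 in E47 and 12.2 in GFP at 4 h and of 14.3 in GFP at 16 h, and was not called in E47 at 16 h. Of the 4060 regions of the series that were missing from this list alone (6.67% of all regions), 94.6% had a lower fold in GFP at 16 h, so few of the regions with this pattern were as tall. The cluster held 3 such regions of 40. At equal list length the region was still called in the other lists. The E47 list at 16 h, the shortest, was not changed by that step, so no call could be gained there.

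Il18rap encodes the accessory chain that the IL-18 receptor needs for signalling (chr1:40515362-40551707). Its start and the 2 regions of its gene body that were called in every list differed in opposite directions, while 2 weaker regions near the start did not follow those of the gene body throughout. At the start (chr1:40514835-40515497) the folds were 10.2 in E47 and 8.60 in GFP at 4 h, and 12.7 and 10.8 at 16 h. E47 was higher at both times, by ratios of 1.18 and 1.17, also after division by each list's median and by percentile, and in no other region of the cluster did a higher E47 value hold on all 3 scales. Both lists at 16 h lay above their counterparts at 4 h, so the 4 values overlap between vectors. Just before Il18rap, 945 bp beyond the end of Il18r1 (chr1:40501080-40502467), lay the widest region, of 1388 bp, where E47 and GFP had folds of 11.5 and 10.7 at 4 h and of 12.7 and 10.1 at 16 h. Here both E47 values were above both GFP values, but at 4 h the order turned on the other scales, with percentiles of 46.9 in E47 and 47.7 in GFP.

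Inside Il18rap, 14.2 kb after the start (chr1:40529150-40529745), the folds were 11.02 in E47 and 15.2 in GFP at 4 h, and 10.5 and 17.04 at 16 h. Both GFP values lay well above both E47 values, 1.38-fold at 4 h and 1.63-fold at 16 h. By percentile among regions called in all lists it stood at 43.2 and 73.7 at 4 h and at 47.2 and 77.1 at 16 h. Only 1.49% of these regions had a lower ratio of E47 to GFP at 4 h, and 4.90% at 16 h. Near the end of the gene, 35.1 kb after the start (chr1:40550310-40550790), the folds were 7.28 with E47 and 7.87 with GFP at 4 h, and 5.76 with E47 and 10.6 with GFP at 16 h. There GFP was 1.08-fold above E47 at 4 h and 1.84-fold at 16 h. The remaining regions of the gene were weaker: the one 29.4 kb after the start was called in GFP at 16 h alone (5.77). The region 0.8 kb after the start was called at 4 h in GFP alone (6.94), and at 16 h E47 was above GFP (6.27 against 5.62). The region 1.2 kb after the start was called at 4 h in E47 alone (6.46) and at 16 h in GFP alone (6.58). It lies less than 200 bp from the region 0.8 kb after the start, and merging peaks up to 200 bp apart joins them.

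The same direction was seen beyond Il18rap, in a pair of regions inside the neighbouring gene Slc9a4, a sodium/hydrogen exchanger gene whose body reaches into the window. The taller (chr1:40586732-40587309) had folds of 12.2 in E47 and 15.6 in GFP at 4 h and of 10.8 and 17.5 at 16 h, with GFP again above E47 in both lists. Its smaller neighbour (chr1:40586332-40586678) had folds of 6.11 with E47 and 6.79 with GFP at 4 h, and of 7.16 with GFP at 16 h, where E47 had no call.

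Il1r2 encodes the decoy receptor, which binds IL-1 without a TIR domain to signal (chr1:40084692-40125230). Its start region (chr1:40085412-40086174) was called in all lists, with folds of 9.59 in E47 and 8.76 in GFP at 4 h and of 10.9 and 10.3 at 16 h. The difference at 4 h is lost by percentile, at 32.7 against 33.1. The largest difference between the vectors near this gene lay 10.7 kb before its start (chr1:40074950-40075675), where the folds were 11.3 with E47 and 12.2 with GFP at 4 h, and 9.43 with E47 and 17.7 with GFP at 16 h. The GFP value at 16 h was the highest of the cluster, 1.87-fold above E47, while at 4 h the ratio was 1.08. Between the times the value was 1.44-fold higher in GFP and lower in E47 (ratio 0.83). A further region 29.9 kb before the start had folds of 10.96 to 12.99 in the 4 lists, with E47 higher at 4 h and GFP at 16 h. Weaker regions lay 40.6 kb before the start (3 lists, folds of 4.69 to 6.86), 1.0 kb after it (2 lists, 4.41 and 6.75), 30.3 kb after it (GFP at 16 h alone, 2.41) and 30.5 kb after it (3 lists, 7.87 to 10.4).

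Il1r1, the signalling receptor for IL-1 alpha and IL-1 beta (chr1:40222480-40316201), is the longest gene of the cluster at 93.7 kb and had no region that was called in all lists. It carried 4 regions, or 0.427 per 10 kb, against 1.32 for Il1rl1, 1.42 for Il18r1 and 1.65 for Il18rap. No region was found for 152 kb, from inside Il1r2 to 43.7 kb after the first Il1r1 start, so that start stood alone, with the nearest region 43458 bp from its window. Near the second start, regions 2181 bp and 4529 bp after it were called in different sets of lists. The first (chr1:40268587-40268923) was the GFP-only one, with fold 4.67 at 4 h and fold 6.15 at 16 h, and was weak, at percentiles of 2.11 and 15.9 by −log10 p. The second (chr1:40270905-40271523) had folds of 8.67 and 6.93 in E47 and 7.06 in GFP at 16 h, and was missing from GFP at 4 h. The other 2, further inside the gene, were called in E47 at 4 h (fold 8.18) and in the longest list of each vector, E47 at 4 h and GFP at 16 h (6.63 and 7.79).

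Il1rl2, the IL-36 receptor gene (chr1:40324589-40367555), had no region at its start and 2 inside, towards its end. The one 30.9 kb after the start (chr1:40355261-40355792) had folds of 7.99 in E47 and 9.17 in GFP at 4 h and of 5.73 and 11.2 at 16 h. The GFP value was 1.15-fold and 1.96-fold above E47, and the latter was the largest ratio of any region of the cluster called in all lists. Its neighbour 34.5 kb after the start (chr1:40358808-40359200) had folds of 5.41 and 5.82 at 4 h and 7.95 in GFP at 16 h and was not called in E47 at 16 h. Between Il1rl2 and Il1rl1 lay 2 adjoining regions, at 55.7 kb and 56.6 kb after the Il1rl2 start, with folds of 6.61 to 11.2. At the second of them E47 exceeded GFP at 4 h (10.1 against 6.61) and not at 16 h (7.17 against 8.29).

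**Figure D3:**
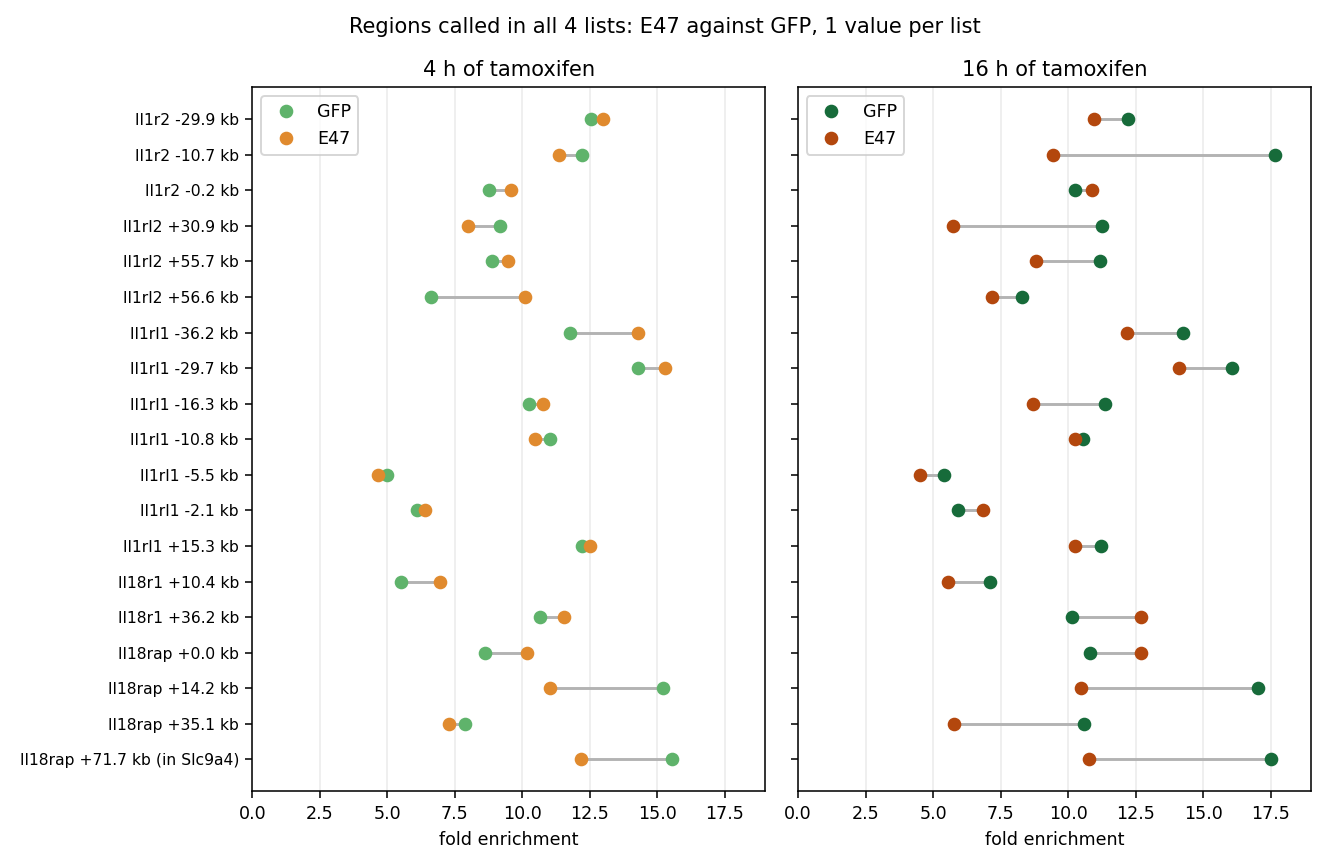
Fold enrichment (x axis) of the 19 regions called in all lists (rows, in chromosome order), with E47 and GFP as joined dots at 4 h (left) and 16 h (right); each dot is the single value of 1 list, without error. At 16 h, E47 lies left of GFP in 15 rows, farthest for the regions 10.7 kb before Il1r2, 30.9 kb into Il1rl2, 14.2 kb and 35.1 kb into Il18rap and in Slc9a4.

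Read together, the 19 regions called in every list were lower with E47 in 7 cases at 4 h and in 15 at 16 h, against 30.5% and 64.6% of all regions called in every list. They were lower at both times in 7 cases (36.8%), as were 22.5% of all such regions, and higher at both times in 4 (21.1%), as were 27.4%. The other 8 were all higher with E47 at 4 h and lower at 16 h. With each value divided by its list's median, 9 were lower and 2 higher at both times (23.6% and 29.3% of all), and by percentile 9 and 1 (26.5% and 29.1%). Of the 7 lower regions, 6 were lower on all 3 scales: those before Il1r2, in Il1rl2, 5.5 kb before Il1rl1, the 2 in Il18rap and the 1 in Slc9a4. In the same 7, both E47 values lay below both GFP values, as in 18.2% of all, and in 2 regions (21.6% of all) both lay above. At 16 h, 5 of the 19 had a ratio of E47 to GFP below 0.616, the limit of the lowest 5% of all regions called in every list (a count chosen after the values were seen), and at 4 h 2 had one below 0.819. In the highest 5% lay 1 region at each time: the second of the adjoining pair after Il1rl2 at 4 h (ratio 1.53, limit 1.47) and the region between Il18r1 and Il18rap at 16 h (ratio 1.25, limit 1.24). The 5 low ones at 16 h are the region before Il1r2, that in Il1rl2, the 2 in Il18rap and the 1 in Slc9a4. None lies between Il1rl2 and the start of Il18rap. The region 14.2 kb into Il18rap and that in Slc9a4 lay barely below the limit, with ratios of 0.614 and 0.615, so the count of 5 depends on the exact limit. No test stands behind these counts, neighbouring regions share their locus, and E47 at 16 h is the shortest list, whose part in the result was not tested.

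**Figure D4:**
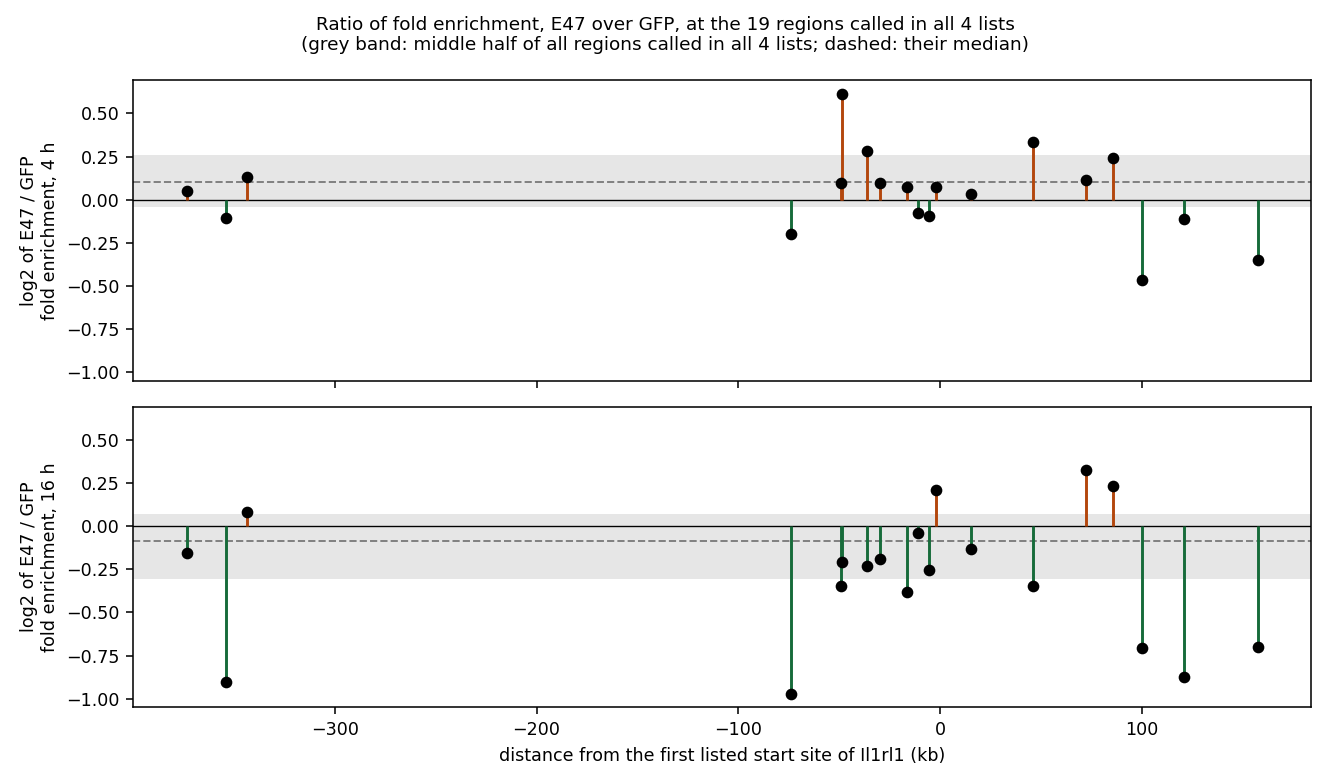
The log2 ratio of fold enrichment, E47 over GFP (y axis), of the 19 regions called in all lists against distance in kb from the first listed Il1rl1 start site (x axis), at 4 h (top) and 16 h (bottom); the grey band and dashed line give the middle 50% and the median of all 29667 regions called in every list. At 16 h the deepest points stand at both outer parts of the cluster and in Il1rl2, and those around Il1rl1 stay in or near the band.

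Change with time was also compared within a vector. From 4 h to 16 h the GFP value was higher in 14 of the 19 regions (73.7%, against 71.9% of all regions called in every list), with a median ratio of 1.13 against 1.08. In E47 it was higher in 4 (21.1%, against 29.8%), with a median ratio of 0.88 against 0.94. The 4 regions that were higher at 16 h with E47 included the start regions of Il1r2 (ratio 1.13) and Il18rap (1.25), the region between Il18r1 and Il18rap (1.103) and that 2.1 kb before Il1rl1 (1.07).

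The other genes of the pathway were examined by the same rule. Of the 38 further genes for ligands, coreceptors and signalling proteins matched in the gene table, 34 had a region inside or within 50 kb, in all 334 regions. At both times 8 of them (2.40%) were called with E47 alone and 13 (3.89%) with GFP alone, in 6 and 12 genes, beside 3.43% and 4.56% of the series. Nfkb1, which encodes the NF-kB subunit p50 and its precursor, had 42 regions, 3 of them E47-only at both times and 1 GFP-only. Il18 encodes the ligand of the IL-18 receptor, Tnfaip3 the NF-kB inhibitor A20, and Mapk14 the p38 alpha kinase. Each of these genes had 2 regions that were GFP-only at both times and none that was E47-only at both times. Il1rap, the accessory chain shared by the receptors for IL-1, IL-33 and IL-36, had 1 region, called in every list, with folds of 22.7 in E47 and 20.7 in GFP at 4 h and 19.03 and 21.02 at 16 h. Myd88, the adaptor gene of all these receptors, had 11 regions, 5 of them called in every list. Il33, the ligand of ST2, had 4. Il1f6, Il1f8 and Il1f9, which encode IL-36 ligands, and Il1rapl2 had no region. Of 170 regions of the pathway called in every list, 37 (21.8%) were lower with E47 at both times and 55 (32.4%) higher.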

How the data were processed

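ATAC-seq peak lists of thymic ILC2s were analysed, 1 list for each of 4 groups of 2 samples, with groups from the sample titles. The labels do not say if a group's samples were separate cultures or mice. The build mm10 and the tools MACS2, Bowtie2, cutadapt and DiffBind come from the submitters' processing notes, with settings not given in the sources used here. Names in the labels show that tracks were pooled, freed of duplicates and mitochondrial reads and adjusted for Tn5, and that the lists are conservative IDR sets (irreproducible discovery rate, a filter on agreement between replicates). The deposited lists give for each peak its enrichment as a ratio, or fold, over local background, the −log10 of p (2.00 or more in each list), a score capped by the authors at 1000 (540 or more, not used) and a summit. All are the authors' values within 1 list. Per the deposited files there are no values per sample and no depth, so no error, interval or test could be given.

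Overlapping lines were merged within a list into 49811, 42665, 40649 and 52846 regions (E47 4 h, GFP 4 h, E47 16 h, GFP 16 h), and regions of different lists sharing 1 bp or more were linked. A region's fold is the highest of its peaks, and percentiles of fold use the 29667 regions in all lists. Genes and promoter windows are from RefSeq GRCm38.p6, where all 6 members matched; exons were not given. The members and gene lists were chosen with earlier results of these data known. All 6 members were described with their differing regions, tallest region and regions at gene ends, and pathway genes by the number of regions separated by vector at both times; Il1rap, Myd88, Il33 and the genes without a region were chosen after their values were seen. Of 42 pathway entries 38 gave a gene. Linking was tested on 8000 simulated regions, for which 100% of call patterns were recovered. The simulated regions lay too far apart to touch, so this check does not cover closely spaced regions. Alternatives were other windows, overlaps, merging, list lengths, thresholds and fold summaries, and, added after seeing the data, other scales of fold and leaving out Slc9a4. Python 3.11.15, pandas 2.3.3, numpy 2.4.6 and matplotlib 3.10.9 were used.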

Additional observations from a re-analysis of the deposited data

Results flagged for a closer look

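The balance of calls in the cluster turned between the times. Regions called with E47 alone, less those called with GFP alone, numbered 5 at 4 h (9 against 4) and -11 at 16 h (1 against 12), so the 2 times moved in opposite directions. This difference was not tested, since each group has 1 list. The E47 list is the longer at 4 h and the GFP list at 16 h. With lists of equal length the cluster's counts were 5 against 6 and 4 against 5. The turn was thus not seen in the cluster at equal length. Shares of the series were then 12.2% against 12.1% and 14.5% against 15.1%, which equal lengths by themselves make nearly equal.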

How the results depend on the processing

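No paired analysis was possible because each group has 1 list and no values per sample, and for the same reason no replicate could be left out. Of 173 values recomputed under alternatives, 127 stayed within 1.5 times the main count or share (or, for median folds, did not change). With lists of equal length, E47-only and GFP-only regions at 4 h were 5 and 6, at 16 h 4 and 5, and E47-only at both times 1 in place of 0; regions missing only from E47 at 16 h were 1 and only from GFP at 4 h 2. The shares of all regions were then 12.2% and 12.1% E47-only and GFP-only at 4 h, and 14.5% and 15.1% at 16 h. Equal lengths by themselves make the shares of a pair nearly equal. E47-only at both times were 4.74%, missing only from E47 at 16 h 4.67%, and missing only from GFP at 4 h 2.75%. With regions at or above their list's median −log10 p alone, the lists held 15, 15, 10 and 18 regions (E47 4 h, GFP 4 h, E47 16 h, GFP 16 h). Of these, 8 were in all lists (60.8% of all regions of the series). At 4 h, 2 were E47-only (16.5% of all) and 2 GFP-only (4.82%), and at 16 h 0 were E47-only (4.20%). Missing only from E47 at 16 h were 5 (6.42% of all), and only from GFP at 4 h 1 (3.44%). Within gene bodies alone, 11 were in all lists, 0 E47-only at 16 h, and GFP at 4 h and E47 at 16 h held 17 and 16. Counting single summits (94, 70, 71 and 98 per list) gave 49 in all lists, 34 and 13 at 4 h, 9 and 33 at 16 h, 5 and 5 at both times, and 10 and 10 missing only from E47 at 16 h or GFP at 4 h; there are more summits than regions by construction. Median folds of the 19 regions were 7.27, 6.73, 6.23 and 8.06 when averaged over a region's peaks, against 10.5, 10.3, 10.2 and 11.2. Regions higher with E47 at both times were 2 on the median scale, 1 by percentile and 2 with both E47 lists above both GFP lists, against 4. The cause of these changes was not tested. Depth per library is unknown here and limits every call.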
